A study of Mus musculus with 6 samples.

Results

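Cytokines are secreted signalling proteins, chemokines are the cytokines that attract leukocytes, and members of the tumour necrosis factor (TNF) superfamily are mostly membrane-bound ligands. Many of their receptors end at the transcription factor NF-kB, which is held in the cytoplasm by inhibitor proteins and induces many cytokine and chemokine genes as well as its own inhibitors. In the stomach such signals pass between epithelium and leukocytes during infection and gastritis. The genes described here are the 181 of 23284 genes in the deposited table whose symbols name a chemokine, a chemokine receptor, an interleukin, an interleukin receptor, a TNF superfamily ligand or a TNF receptor, together with Tnf, Cx3cl1, Icam1 and the NF-kB genes Nfkb1, Nfkb2, Relb, Nfkbia, Nfkbiz, Tnfaip2 and Tnfaip3. Membership follows from symbols, but the set was chosen with earlier results of these data known.

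RNA was sequenced from mouse parietal cells, which secrete gastric acid, sorted from the stomach by flow cytometry for the red protein tdTomato. The 3 control libraries have the genotype label Transgenic-Tom and the 3 noggin libraries Transgenic-Tom-nog. Per the series design, the noggin mice carried H+/K+-Cre and H+/K+-Nog together with Rosa26-tdTom. The H+/K+ names mark the proton pump of parietal cells, Cre switches on the reporter, and noggin is a secreted protein that binds and blocks bone morphogenetic proteins (BMPs). Both groups carry the reporter, and the label does not spell out the other alleles of the controls. The titles call the libraries biological replicates. Neither the age of the mice nor whether a library came from 1 animal or a pool is given in the sources used here, and p-values cover only the spread seen between the 6 libraries. The comparison asks what happens to parietal cells when BMP signalling is blocked, here for immune signalling genes.

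Values are FPKM as deposited (fragment counts scaled to transcript length and to the size of the library), and the read depth behind them is unknown. Nog was at 0.871 to 1.97 FPKM in controls against 2281 to 2734 FPKM in noggin libraries. The proton pump genes that define parietal cells, Atp4a and Atp4b, were at 5433 FPKM or more in every library. Atp4a was lower in every noggin library, with means of 14422 and 6275 FPKM (log2 change -1.21, limma adjusted p = 0.124), and Atp4b was not, with means of 19814 and 23024 FPKM. With these 2 included, 8 parietal cell markers summed to 31543 to 38628 FPKM in controls against 27903 to 31229 FPKM in noggin libraries, with 3 of the 8 called lower. Transcripts of other gastric cells were also present: 4 mucous neck cell markers summed to 1930 to 2490 FPKM in controls against 8573 to 21968 FPKM in noggin libraries, 4 chief cell markers to 38099 to 67082 and 42988 to 112567 FPKM, 4 pit cell markers to 9170 to 13966 and 9098 to 23640 FPKM, and 6 enteroendocrine markers to 441 to 2678 and 1893 to 28591 FPKM. The sums for 5 tuft cell markers were 3.83 to 8.95 and 13.2 to 24.3 FPKM, and for 10 endothelial and stromal markers 1.04 to 1.67 and 0.608 to 7.47 FPKM. Noggin replicate 3 stood apart, with 542 of the 10644 tested genes listed at 0 against 19 to 34 in the other libraries.

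Most of these immune genes were barely present. Of the 181, 26 were listed at 0 in all 6 libraries, among them Ccr3, Cxcr3, Il3, Il9 and Il22, and 115 stayed under 1 FPKM in every library. Only 41 reached 1 FPKM in at least 3 libraries and were tested, and the other 25 reached 1 FPKM in fewer libraries. Between 37 and 40 members reached 1 FPKM in a control library and between 45 and 51 in a noggin library. The test was limma's moderated test on log2(FPKM + 1), a scale that understates the fold of low genes, with p-values adjusted over all 10644 tested genes. At an adjusted p under 0.05, 3 of the 41 tested members were higher in noggin libraries, Il18bp, Cxcl17 and Il18r1, against 1.75% of all tested genes. None of the 41 was lower by this limma test, where 0.695% of all tested genes were, and at an unadjusted p under 0.05 the counts were 10 higher (15.8% of all tested genes) and 1 lower (10.9%). Groups did not overlap for 11 members that were higher in noggin libraries, against 20.3% of all tested genes, and for 3 that were lower, against 18%. As shares of the 41 these are 26.8% and 7.32%. The median log2 fold change of the tested members was 0.06 and that of all tested genes -0.03. Ccl7 passed the filter through the noggin libraries alone and Tnfrsf19 through the controls alone, so these summaries describe the members that passed and are no support for a shift of the whole set.

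**Figure D1:**
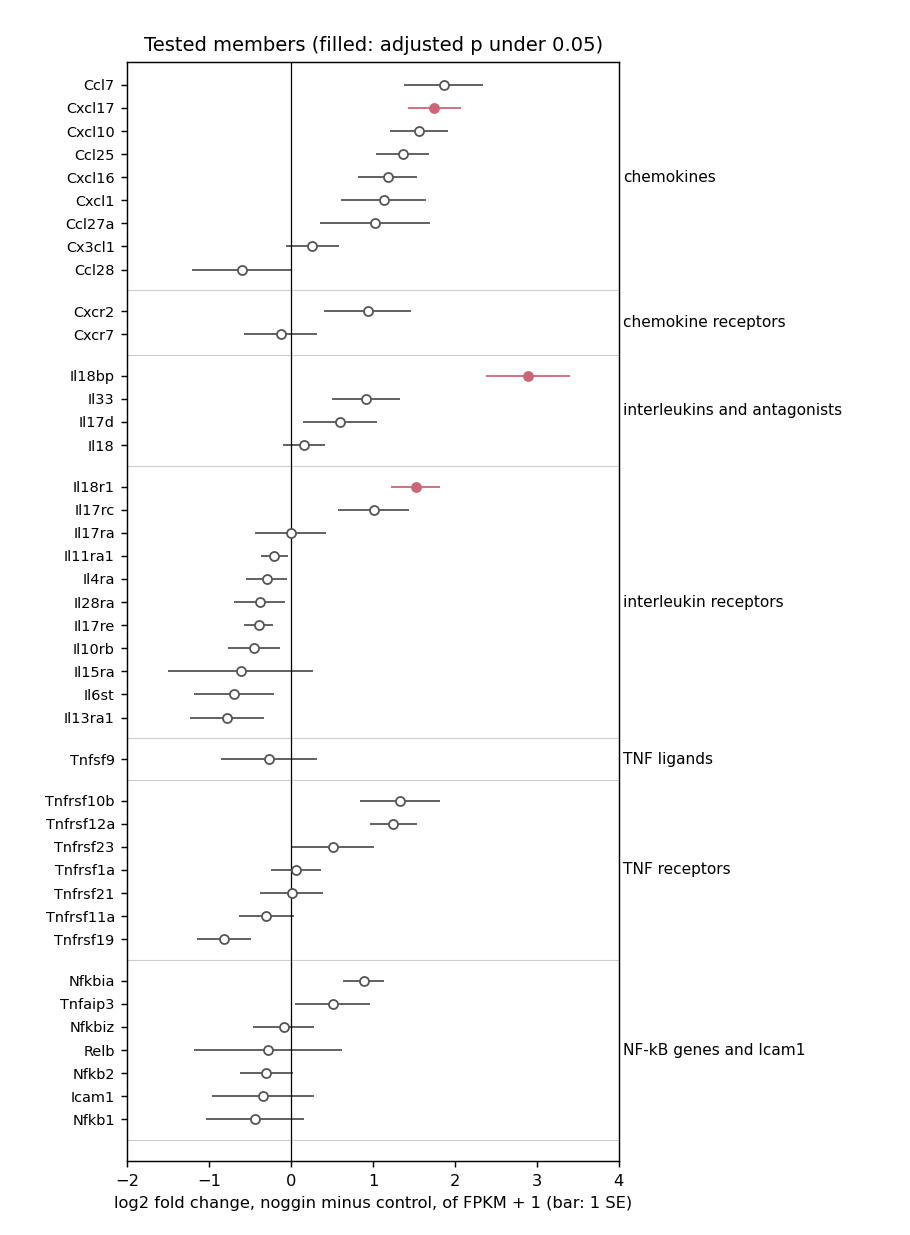
Log2 fold change (noggin minus control, of FPKM + 1) of the 41 tested members on the x axis, ordered by role, with bars of 1 standard error. Filled points mark the 3 members with a limma adjusted p under 0.05, and 8 of the 9 chemokines lie to the right of 0 while 9 of the 11 interleukin receptors lie to the left.

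Scaling and single libraries bear on these calls. As deposited, all genes summed to 595736 to 669124 FPKM in control libraries against 797168 to 1188190 FPKM in noggin libraries. With all libraries rescaled to the same total FPKM, which moved the median of all tested genes to -0.62, 3 members were higher and 1 lower, beside 128 and 827 of all genes. Quantile normalization gave 5 higher and 0 lower, beside 243 and 231 of all genes. Without control replicate 1, 2 or 3 or noggin replicate 1 no member was called, without noggin replicate 2 there were 8 higher and 2 lower of 38 tested, and without noggin replicate 3 there were 5 higher and 1 lower of 39. Over all tested genes the shares were 11% higher and 7.99% lower in the first case and 2.36% and 2.29% in the second.

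Of the 38 chemokine genes 9 were tested, of which Cxcl17 rose and 8 did not pass. In 6 of the 9 every noggin library was above every control, against 20.3% of all tested genes, and the 6 include Ccl7, which passed the filter through the noggin libraries alone. The median log2 fold change of the 9 was 1.18, and it was 0.65 after rescaling and 1.31 after removal of the relation with transcript length. Log2 fold changes were positive for 8 of the 9, beside 5143 of the 10644 tested genes, and for 7 of 9 with the length relation removed.

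Cxcl17 is a mucosal chemokine of epithelia that attracts myeloid cells, and it was the most abundant chemokine in every library. It was at 106, 79.1 and 70.9 FPKM in control replicates 1, 2 and 3, against 353, 173 and 378 FPKM in the noggin libraries in the same order. All noggin libraries lay above all controls, with replicate 2 the lowest of them. The means were 85.3 ± 18.2 and 301 ± 112 FPKM (SD, n = 3 each), and the log2 fold change was 1.75 (standard error 0.326, limma adjusted p = 0.0444). The gene lies on chromosome 7 from 25400053 to 25412886 in GRCm38, the same assembly as mm10. Its call was lost without control replicate 1, 2 or 3 or noggin replicate 1 or 3, at adjusted p-values of 0.0571 to 0.220 and log2 fold changes of 1.54 to 1.91. The call was also lost with a pseudocount of 0.1 (adjusted p = 0.0603) or 0.01 (adjusted p = 0.0677). The same held without a filter (adjusted p = 0.121) and without the mean-variance trend of the test (adjusted p = 0.0726).

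Cxcl10 is an interferon-induced chemokine that attracts T cells through Cxcr3, a receptor listed at 0 in all 6 libraries. Cxcl10 (chromosome 5, 92346638 to 92348889) was at 1.22, 2.68 and 1.90 FPKM in controls against 8.34, 9.51 and 5.22 FPKM in noggin libraries. The groups did not overlap, but the log2 fold change of 1.56 did not pass the test (standard error 0.355, limma adjusted p = 0.0663). It passed with quantile normalization (1.84, adjusted p = 0.0262), without noggin replicate 2 (1.41, adjusted p = 0.0476) and without noggin replicate 3 (1.79, adjusted p = 0.0341). Under the other alternatives it did not pass. Among these were rescaling (1.03, adjusted p = 0.123) and leaving out any control (adjusted p = 0.206 to 0.332). Its annotated exons share 133 bases with Art3. Cxcl9 and Cxcl11, its neighbours on the chromosome with the same receptor, stayed under 1 FPKM.

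Cxcl1 and Cxcl2 attract neutrophils through Cxcr2. Cxcl1 was at 3.08, 4.73 and 6.24 FPKM in controls against 6.26, 8.11 and 25.7 FPKM in noggin libraries, so that the groups just failed to touch and noggin replicate 3 was the highest. Its log2 fold change was 1.13 (standard error 0.520, limma adjusted p = 0.209). Cxcl2 was below the filter, at 0.216, 0.560 and 0.752 FPKM in controls against 0.0983, 1.97 and 13.1 FPKM in noggin libraries. Noggin replicate 1 was below every control and replicate 3 far above. The receptor Cxcr2 was at 0.431, 0.448 and 1.12 FPKM in controls against 3.23, 0.358 and 4.34 FPKM in noggin libraries, with a log2 fold change of 0.93 (standard error 0.530, limma adjusted p = 0.287). Replicate 2 lay under all controls in this gene, and without it Cxcr2 passed the test (1.54, adjusted p = 0.0298).

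The stretches before the start sites of these 3 chemokine genes are shown because all 3 genes are known targets of NF-kB and had their highest values in noggin libraries. Sequences are from the RefSeq promoter table of GRCm38.p6, on the strand of the gene, 5′ to 3′. Capitals mark matches on either strand to the kB consensus, the site that NF-kB proteins bind, and to GAAANNGAAA, a core of the interferon-stimulated response element (ISRE). Another motif, TTCNNNGAA, the gamma-activated site (GAS) of interferon signalling, had no match in the 3 stretches. No kB match overlaps an ISRE match here. The Cxcl10 stretch is chr5:92348960-92349139 (minus strand, bases -250 to -71), the Cxcl1 stretch chr5:90891095-90891194 (plus strand, -150 to -51) and the Cxcl2 stretch chr5:90903749-90903848 (plus strand, -150 to -51).
Cxcl10: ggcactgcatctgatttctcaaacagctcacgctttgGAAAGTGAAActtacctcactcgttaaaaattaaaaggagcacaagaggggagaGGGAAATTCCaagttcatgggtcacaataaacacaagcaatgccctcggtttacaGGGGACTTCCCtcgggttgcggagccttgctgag
Cxcl1: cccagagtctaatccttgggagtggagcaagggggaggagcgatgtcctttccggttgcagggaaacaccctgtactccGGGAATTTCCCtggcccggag
Cxcl2: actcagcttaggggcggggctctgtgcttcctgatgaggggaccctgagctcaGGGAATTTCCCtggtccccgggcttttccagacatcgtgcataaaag

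In Cxcl10 the ISRE core lies at bases -213 to -204, and kB matches begin at -159 and -104. Cxcl1 and Cxcl2 hold the same 10 bases, GGGAATTTCC, from -71 to -62 and from -97 to -88. Of the 32851 promoters in the table, 7.25% hold a kB match in the 250 bases before the start, 2.98% an ISRE core and 7.02% a GAS. Of the 181 members 138 matched the table, with 167 promoters, of which 25 (15%) hold a kB match, 9 (5.39%) an ISRE core and 19 (11.4%) a GAS. Among the 31 tested members with a promoter in the table, 5 hold a kB match: Cxcl1, Cxcl10, Nfkb2, Nfkbia and Tnfaip3. Of these, only Cxcl1, Cxcl10 and Nfkbia did not overlap between groups, and none of them passed the main test. Over all tested genes, 20.3% were higher in noggin libraries without overlap. A relation between kB matches and fold changes was not tested. Il18bp holds none of the 3 motifs in this window. One of 3 listed starts of Il18r1 is preceded by a pair of GAS matches, from -219 to -211 and from -152 to -144.

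Ccl25 attracts cells bearing Ccr9 to the small intestinal epithelium. It was at 2.73, 2.55 and 2.36 FPKM in controls against 11, 5.85 and 8.20 FPKM in noggin libraries. The controls lay close together and every noggin library was above them, with a log2 fold change of 1.36 (standard error 0.322, limma adjusted p = 0.0741). It passed with quantile normalization (1.61, adjusted p = 0.0350), without noggin replicate 2 (1.57, adjusted p = 0.0246) and without noggin replicate 3 (1.36, adjusted p = 0.0492). Ccl25 did not pass under the other alternatives, among them rescaling (0.79, adjusted p = 0.139) and leaving out any control (adjusted p = 0.248 to 0.351). Its annotated exons share 204 bases with Elavl1 on the other strand, and the strand of the reads is not known. Ccr9 stayed under 1 FPKM in every library.

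Cxcl16, a transmembrane chemokine that also acts as a scavenger receptor, was at 10.9, 9.15 and 7.89 FPKM in controls against 15.8, 17.9 and 38.3 FPKM in noggin libraries. The groups did not overlap (log2 change 1.18, standard error 0.360, limma adjusted p = 0.109). Its annotated exons share 552 bases with Zmynd15. Ccl27a, which attracts T cells in skin, was at 3.48 to 3.89 FPKM in controls against at 8.01, 2.53 and 26.9 FPKM in noggin libraries, where replicate 2 was below the controls. The mucosal chemokine Ccl28 was at 3.07, 3.03 and 2.93 FPKM in controls against 1.82, 5.29 and 0.0375 FPKM in noggin libraries, on both sides of the controls. Cx3cl1, a membrane-bound chemokine, was at 4.53 to 7.17 FPKM in controls against 5.20 to 8.65 FPKM in noggin libraries and overlapped. Cxcl12, the ligand of Cxcr4, reached at most 0.80 FPKM, in noggin replicate 2.

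**Figure D2:**
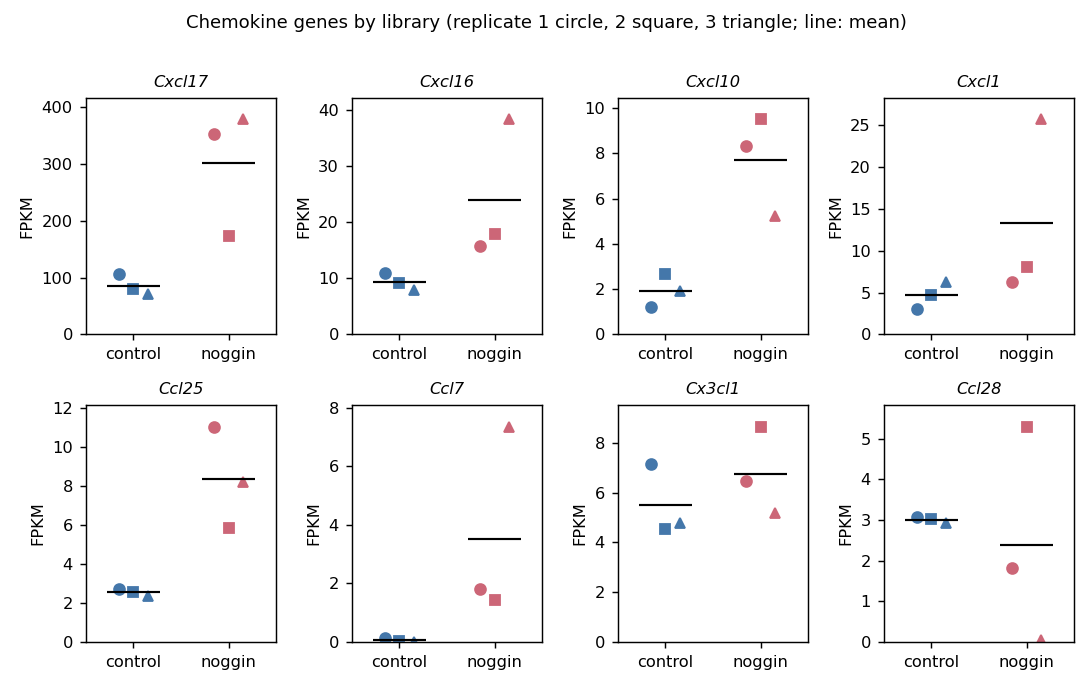
FPKM of 8 tested chemokine genes in each library, with the 3 controls on the left and the 3 noggin libraries on the right of each panel, a line at the group mean and a linear axis from 0. Cxcl17, Cxcl16, Cxcl10, Cxcl1, Ccl25 and Ccl7 have no overlap between groups, and Cx3cl1 and Ccl28 overlap.

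Inflammatory CC chemokine genes that sit together on chromosome 11 (82035571 to 83664683) were near 0 in controls. Of the 11 genes there, 0 reached 1 FPKM in a control library and 5 did in a noggin library: Ccl1, Ccl2, Ccl3, Ccl4 and Ccl7. The 11 genes summed to 0.861, 0.921 and 1.5 FPKM in controls against to 8.93, 22.7 and 22.7 FPKM in noggin libraries. Different genes made up that sum in different libraries. Ccl2, which attracts monocytes, was at 1.75, 6.34 and 0 FPKM in the noggin libraries against 0.196, 0 and 0.196 FPKM in controls. Ccl4, an inflammatory chemokine of macrophages, was at 3.74, 5.36 and 0 FPKM in noggin libraries and 0.250, 0.584 and 0.362 FPKM in controls. Its close relative Ccl3 was at 0.754, 2.34 and 6.03 FPKM against 0.105 to 0.161 FPKM in controls, and Ccl1, a ligand of Ccr8, at 0, 5.48 and 8.36 FPKM against 0 to 0.235 FPKM. Replicate 3 thus held Ccl3 and Ccl1 but was listed at 0 for Ccl2 and Ccl4. Ccl7, another monocyte chemokine and the member of this stretch that was tested, was at 1.81, 1.43 and 7.35 FPKM against 0 to 0.146 FPKM in controls (log2 change 1.86, standard error 0.482, limma adjusted p = 0.0839), and it passed after rescaling (1.62, adjusted p = 0.0439). Because Ccl7 entered the test through the noggin libraries alone, these p-values are no support for a rise of the stretch. Ccl20, a ligand of Ccr6 encoded on another chromosome, was at 0.206 to 1.19 FPKM in controls against 0.264, 2.94 and 0 FPKM in noggin libraries.

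Leukocyte markers were also higher in sum in every noggin library than in any control. Of the 19 markers listed, 4 were tested and 1, Fcer1g, was called higher. All 4 passed the filter through the noggin libraries alone, so this call is no support for a rise of leukocyte markers. The 19 summed to 2.58 to 3.31 FPKM in controls against 32.8, 22.2 and 101 FPKM in noggin libraries, an order that differs from that of the chromosome 11 chemokine sums. Of the markers, 11 of the 19 stayed under 1 FPKM in every library, and the neutrophil markers S100a8 and S100a9 were among those listed at 0 throughout. Ptprc, the pan-leukocyte antigen CD45, reached at most 1.30 FPKM, in noggin replicate 3. Mast cell markers moved as well, summing over 5 genes to 37.1 to 59.6 FPKM in controls against 167 to 254 FPKM in noggin libraries, with 4 called higher and 1, Kit, called lower. Tpsb2 was at 1.86 to 3.73 FPKM in controls against 43.0 to 87.5 FPKM in noggin libraries. Kit was at 32.4 to 43.2 and 6.59 to 10.3 FPKM. The part of these cells in the chemokine values was not tested, and in bulk samples fewer cells of a type and less RNA per cell cannot be told apart.

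Receptors for chemokines were largely missing. Of 18 genes, 16 stayed under 1 FPKM in every library, 3 of them listed at 0, and 2 were tested. Besides Cxcr2, the atypical receptor Cxcr7 (now Ackr3), which removes Cxcl12 from the surroundings, was at 0.414 to 1.16 FPKM in controls against 0.576, 2.07 and 0 FPKM in noggin libraries, with overlap (log2 change -0.13, standard error 0.445, limma adjusted p = 0.872).

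Most interleukin genes were near 0, while Il18 was at 30.1 FPKM or more in every library. Of 43 interleukin and antagonist genes, 13 were listed at 0 in all libraries, 31 stayed under 1 FPKM and 4 were tested, of which Il18bp rose and 3 did not pass. Il18 is an IL-1 family cytokine that epithelial cells store as a precursor. It was at 36.9, 38.9 and 36.8 FPKM in controls against 41.4, 58.9 and 30.1 FPKM in noggin libraries, on both sides of the controls (log2 change 0.16, standard error 0.259, limma adjusted p = 0.721). Its sign turned with rescaling (-0.54) and with quantile normalization (-0.082).

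The secreted antagonist of this cytokine rose, with the highest log2 change of FPKM + 1 among the tested members, though with a pseudocount of 0.1 that of Ccl7 was higher (4.23 against 3.34). Il18bp encodes the IL-18 binding protein, which captures mature IL-18 and is known to be induced by interferon gamma. It was at 1.26, 4.31 and 1.91 FPKM in controls against 21.1, 13.1 and 45.4 FPKM in noggin libraries. Every noggin library was at least 3 times the highest control, and control replicate 2 was the highest of the controls. The means were 2.5 ± 1.61 and 26.5 ± 16.8 FPKM (SD, n = 3 each), with a log2 fold change of 2.89 (standard error 0.513, limma adjusted p = 0.0426). The gene lies on chromosome 7 from 102014885 to 102018690. Its annotated exons share 80 bases with Numa1 on the other strand, which was at 8.65 to 11 FPKM in controls against 2.99 to 6.88 FPKM in noggin libraries.

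Il18r1, the ligand-binding chain of the IL-18 receptor, also rose. It was at 1.79, 1.38 and 1.25 FPKM in controls against 7.14, 5 and 6.27 FPKM in noggin libraries, 2 tight groups with no overlap. The means were 1.47 ± 0.283 and 6.14 ± 1.08 FPKM (SD, n = 3 each), and the log2 fold change was 1.52 (standard error 0.299, limma adjusted p = 0.0483). Il18r1 lies on chromosome 1 from 40465552 to 40500854. Il18rap, the accessory chain needed for signalling, reached at most 0.015 FPKM. The ratio of Il18 to Il18bp, formed after the values had been seen and given as a description, was 29.2, 9.02 and 19.2 in controls and 1.97, 4.50 and 0.664 in noggin libraries, all by FPKM and so per length. It restates the Il18bp difference beside an Il18 level that overlapped between groups.

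The calls of both genes depended on single libraries and on the settings of the test. Il18bp lost its call without control replicate 1, 2 or 3 or noggin replicate 1 (adjusted p = 0.0792 to 0.201, log2 fold change 2.63 to 3.24). Il18r1 lost its call without the same 4 libraries (adjusted p = 0.0769 to 0.323, log2 fold change 1.42 to 1.61), after rescaling (1.01, adjusted p = 0.0762) and with a filter of 5 FPKM (adjusted p = 0.0694). Neither was called with a pseudocount of 0.1 or 0.01 or without a filter. Without the mean-variance trend Il18r1 kept its call and Il18bp lost it.

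**Figure D3:**
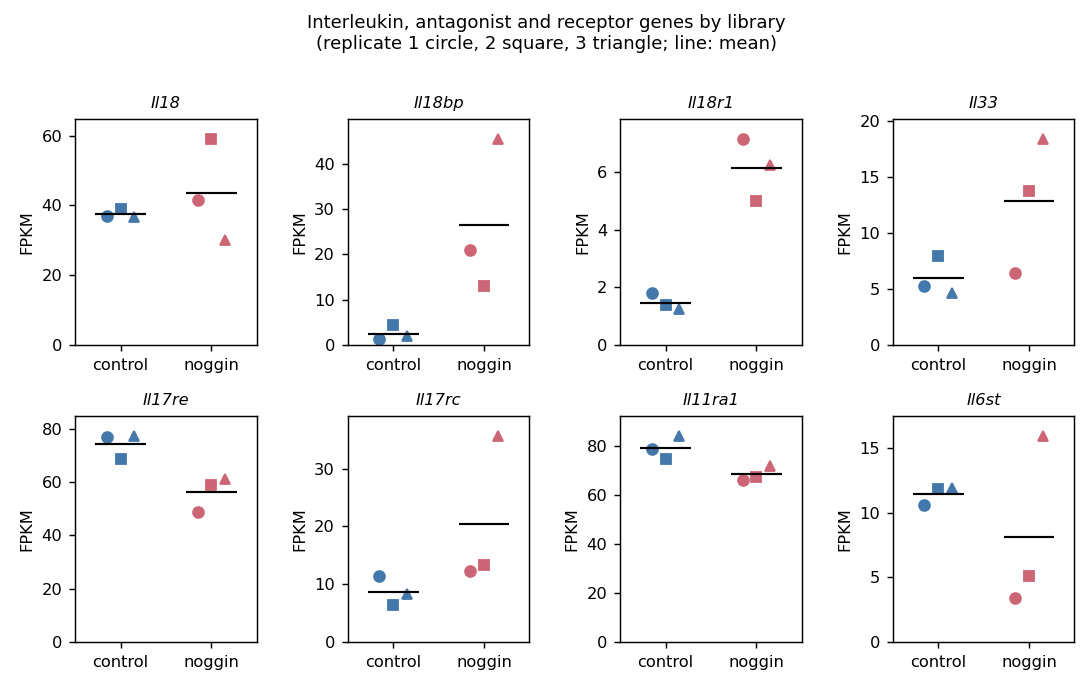
FPKM of 8 interleukin, antagonist and receptor genes in each library, with controls on the left and noggin libraries on the right of each panel, a line at the group mean and a linear axis from 0. Il18 overlaps between groups, Il18bp, Il18r1 and Il17rc are higher in every noggin library, and Il17re and Il11ra1 are lower in every one.

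Other IL-1 family genes varied widely among the noggin libraries, and Il1a, Il1b, Il1rn and Il1f9 were highest in replicate 3. Il33, an epithelial alarm cytokine, was at 5.24, 7.93 and 4.63 FPKM in controls against 6.40, 13.8 and 18.3 FPKM in noggin libraries. Noggin replicate 1 lay within the controls (log2 change 0.92, standard error 0.413, limma adjusted p = 0.201). Il1b, a cytokine of activated myeloid cells, was at 0.184, 0.310 and 0.105 FPKM in controls against 0, 4.97 and 59.9 FPKM in noggin libraries. Il1a, its relative that also acts as an alarm signal, was at 0.101 to 0.255 FPKM in controls against 0.316, 1.04 and 10.5 FPKM in noggin libraries. Replicate 3 was thus the highest for both, and replicate 1 was listed at 0 for Il1b. Il1rn, the natural antagonist of their receptor, followed at 0.0692 to 0.153 FPKM in controls against 0.620, 0.548 and 4.94 FPKM in noggin libraries, and Il1f9 (now Il36g), an IL-36 cytokine, at 0.158 to 0.425 FPKM and 1.19, 0.209 and 2.88 FPKM. Il1r1, the signalling receptor, was at 0.321 to 0.845 FPKM in controls against 1.23, 0.299 and 0 FPKM in noggin libraries. Its partner chain Il1rap was at 0.756 to 0.961 FPKM in controls against 0.478, 0.639 and 5.91 FPKM in noggin libraries. The receptor chains therefore reached 1 FPKM in different noggin libraries.

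Myeloid transcripts differed in the library where they were highest. Lyz2 was at 0.941, 5.77 and 52.6 FPKM and Tyrobp at 9.04, 3.42 and 22.3 FPKM in the noggin libraries, highest in replicate 3. In controls they were at most at 0.720 and 0.587 FPKM. Fcer1g, at 10.8, 3.99 and 3.40 FPKM, and Cd68, at 2.60, 1.03 and 0 FPKM, were highest in noggin replicate 1. Csf1r and Itgax were highest in noggin replicate 2, at 0.479 and 0.468 FPKM, and were listed at 0 in replicate 3. The part of these transcripts in the IL-1 values was not tested.

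Of the 25 members below the filter that reached 1 FPKM somewhere, 14 had their highest value in noggin replicate 3, 6 in replicate 1, 5 in replicate 2 and 0 in a control. A member at 1 FPKM or more in all 3 controls would have passed the filter. The 0 for controls therefore follows in part from how the 25 were selected and shows no shift. Replicate 3 was also listed at 0 for 8 of the 25, against 3 and 1 in noggin replicates 1 and 2. Il10, an anti-inflammatory cytokine, was at 0.0313 to 0.0857 FPKM in controls against 0.0876, 0.249 and 5.97 FPKM in noggin libraries. Il22ra1, a receptor chain for IL-22 in epithelia, was at 0.131, 0.0293 and 3.14 FPKM in noggin libraries and under 0.03 FPKM in controls. Cytokines with the reverse pattern were Il4, the type 2 cytokine, at 1.51, 1.44 and 0 FPKM, and Il6, an inflammatory cytokine, at 1.66, 0.405 and 0 FPKM, against at most 0.108 and 0.186 FPKM in controls. Il2rg, the common gamma chain shared by receptors of IL-2, IL-4 and related cytokines, was at 2.09, 0.742 and 0 FPKM in noggin libraries and at most 0.218 FPKM in controls. Il25, the tuft cell cytokine, reached at most 0.0249 FPKM, in control replicate 1. Il17d, an IL-17 family member, passed the filter at 1.51 to 2.56 FPKM in controls against 2.60, 1.78 and 7.03 FPKM in noggin libraries, with overlap (log2 change 0.60, standard error 0.446, limma adjusted p = 0.412).

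**Figure D4:**
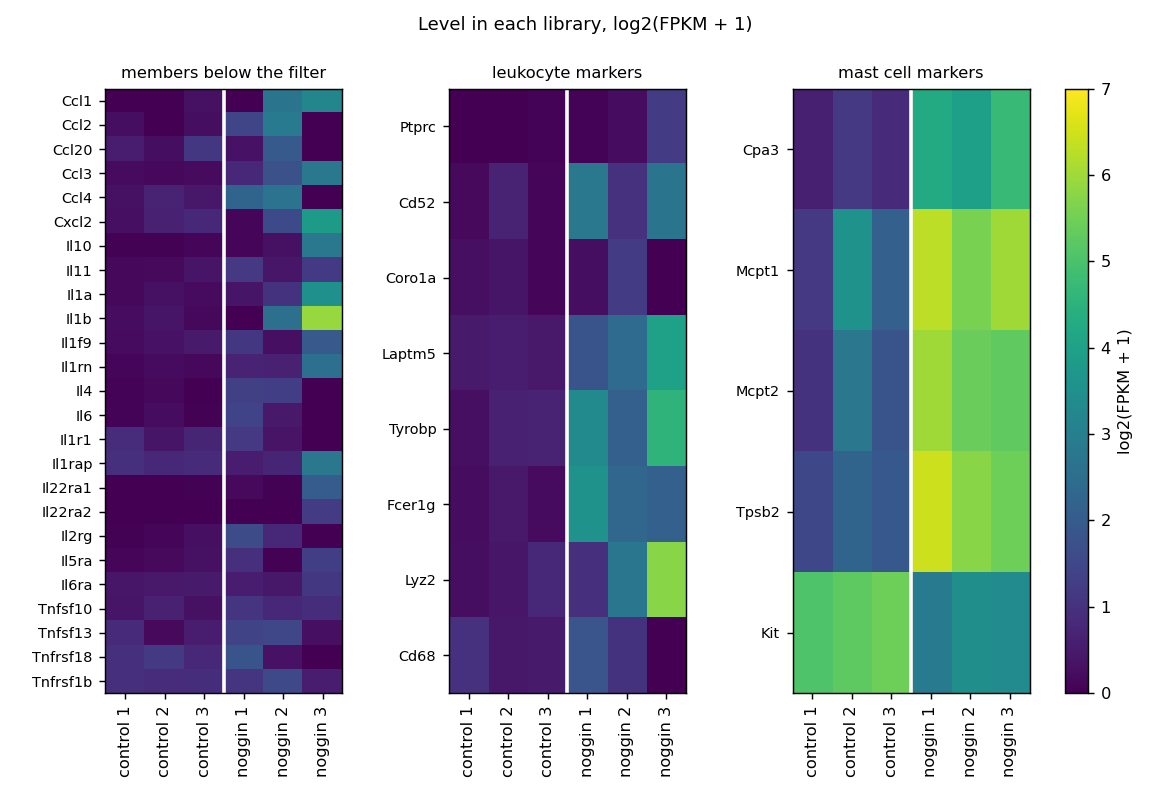
Colour gives log2(FPKM + 1) in each library (columns, 3 controls then 3 noggin libraries) for the 25 members below the filter that reached 1 FPKM in a library, for the leukocyte markers that reached 1 FPKM and for 5 mast cell markers. Il1b and Lyz2 are brightest in noggin replicate 3, at 59.9 and 52.6 FPKM, while Ccl2, Ccl4, Il4 and Il6 are at 0 there.

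Most tested interleukin receptors had negative log2 fold changes, none of which passed the test. Of 42 receptor genes 11 were tested, Il18r1 rose and 10 did not pass. Log2 fold changes were negative for 9 of the 11, beside 5501 of the 10644 tested genes. The median of the 11 was -0.39. That median was -0.93 after rescaling, with 9 of 12 negative, -0.28 after quantile normalization and -0.19 after removal of the length relation, each with 7 of 11 negative.

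Il11ra1 and Il17re had the highest levels among the interleukin receptors. Il11ra1, the binding chain for IL-11, was at 78.8, 75 and 84.1 FPKM in controls against 66.4, 67.3 and 72.1 FPKM in noggin libraries, lower in every noggin library by a small margin (log2 change -0.21, standard error 0.162, limma adjusted p = 0.434). Il11ra1 and Ccl27a have near-identical copies in the mouse genome, so their values are uncertain where reads could be split among copies. The ligand Il11 was at 0.111 to 0.312 FPKM in controls against 1.23, 0.347 and 1.29 FPKM in noggin libraries. Il17re, the epithelial receptor chain for IL-17C, was at 76.7, 68.5 and 77.1 FPKM in controls against 48.8, 58.8 and 61.2 FPKM in noggin libraries. Again no library overlapped (log2 change -0.40, standard error 0.178, limma adjusted p = 0.201), and it passed as lower after rescaling (-1.10, adjusted p = 0.0446). Il17rc, a neighbouring gene on chromosome 6 whose protein pairs with Il17ra, lay the other way, at 11.4, 6.44 and 8.32 FPKM in controls against 12.2, 13.3 and 35.6 FPKM in noggin libraries (log2 change 1.00, standard error 0.433, limma adjusted p = 0.188). Il17ra, the chain common to these receptors, was at 2.91 to 3.41 and 1.58 to 6.45 FPKM, with overlap. The ligand Il17c stayed under 1 FPKM.

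Shared and type 2 cytokine receptors overlapped between groups. Il6st, the gp130 chain through which IL-6 and IL-11 signal, was at 10.6, 11.8 and 11.9 FPKM in controls against 3.39, 5.06 and 15.9 FPKM in noggin libraries. Replicate 3 alone was above the controls (log2 change -0.70, standard error 0.489, limma adjusted p = 0.381), and without it Il6st passed as lower. Il10rb, a chain of the IL-10 and IL-22 receptors, was at 28.3 to 35.7 FPKM in controls against 17.5, 37.7 and 18.5 FPKM in noggin libraries, and it passed as lower without noggin replicate 2. Il13ra1 and Il4ra, which together bind IL-4 and IL-13, were at 12.7 to 14.8 and 10.8 to 13.9 FPKM in controls against at 3.55 to 15.1 and 8.81 to 10.9 FPKM in noggin libraries. Il15ra, which presents IL-15, was at 6.39 to 8.63 FPKM in controls against at 13.0, 8.73 and 0.0751 FPKM in noggin libraries. Il28ra (now Ifnlr1), the interferon lambda receptor, was at 1.53 to 2.24 FPKM and 0.696 to 1.60 FPKM.

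Ligands of the TNF superfamily were scarce. Of 12, 9 stayed under 1 FPKM, including Tnf itself, which was at 0 to 0.0666 FPKM in controls against 0.281, 0.661 and 0 FPKM in noggin libraries. Tnfsf9, the ligand of 4-1BB, was the single tested gene, at 1.90 to 2.51 FPKM in controls against 3.12, 3.80 and 0 FPKM in noggin libraries (log2 change -0.27, standard error 0.590, limma adjusted p = 0.792). Tnfsf13, the B cell factor APRIL, was at 0.137 to 0.808 FPKM in controls against 1.68, 1.83 and 0.210 FPKM in noggin libraries, and it shares 983 of its 1637 annotated exon bases with the gene Tnfsfm13 on the same strand. Tnfsf10, the death ligand TRAIL, was at 0.254 to 0.558 FPKM in controls against 0.719 to 1.06 FPKM in noggin libraries.

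TNF receptors were better represented, with 7 of 20 tested and 0 called by limma. At an unadjusted limma p under 0.05, 2 were higher and 1 lower, beside 15.8% and 10.9% of all tested genes. Tnfrsf12a, the receptor of TWEAK that is known to appear in injured epithelia, was at 39.5, 38.7 and 39.3 FPKM in controls against 148, 72.9 and 77.4 FPKM in noggin libraries. Controls were nearly equal and every noggin library lay well above them, replicate 1 most. The means were 39.2 ± 0.413 and 99.6 ± 42.4 FPKM (SD, n = 3 each), with a log2 fold change of 1.25 (standard error 0.284, limma adjusted p = 0.0663), which passed without noggin replicate 2 (1.43, adjusted p = 0.0284). Its ligand Tnfsf12 stayed under 1 FPKM. Tnfrsf10b, the mouse death receptor for TRAIL, was at 0.847, 0.917 and 1.75 FPKM in controls against 5.98, 1.60 and 7.54 FPKM in noggin libraries. Noggin replicate 2 fell among the controls (log2 change 1.33, standard error 0.489, limma adjusted p = 0.142), and without it the gene passed (1.86, adjusted p = 0.0224).

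Lower in every noggin library was Tnfrsf19, also called Troy, which is known as a Wnt target that marks some gastric chief cells. It was at 1.03, 1.63 and 1.11 FPKM in controls against 0.126, 0.825 and 0 FPKM in noggin libraries (log2 change -0.82, standard error 0.326, limma adjusted p = 0.162), and passed without noggin replicate 2 (-1.08, adjusted p = 0.0405). In that setting 7.99% of all tested genes were called lower. Tnfrsf19 passed the filter through the controls alone, so its p-values are no support for a fall. The main TNF receptor Tnfrsf1a was at 23.2 to 25.4 FPKM in controls against 15.8 to 33.9 FPKM in noggin libraries, and Tnfrsf21, death receptor 6, at 46.1 to 79.1 and 32.0 to 83.2 FPKM. Both overlapped, with log2 fold changes of 0.06 and 0.0052. The other TNF receptor, Tnfrsf1b, was at 0.853 to 0.917 FPKM and 0.488 to 1.90 FPKM. Tnfrsf11a, the receptor RANK, was at 3.60 to 3.95 FPKM and 1.70 to 3.92 FPKM. Tnfrsf23, a decoy TRAIL receptor, was at 0.445 to 1.07 FPKM in controls against 2.1, 3.12 and 0.1 FPKM in noggin libraries (log2 change 0.51, standard error 0.503, limma adjusted p = 0.536).

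Among the NF-kB genes and Icam1, 7 of 8 were tested and 0 were called by limma. At an unadjusted limma p under 0.05, 1 was higher and 0 lower, beside 15.8% and 10.9% of all tested genes. Nfkbia encodes IkB alpha, the inhibitor that NF-kB induces to end its own activity. It was at 85.1, 94.8 and 82.2 FPKM in controls against 223, 161 and 117 FPKM in noggin libraries. All noggin libraries lay above all controls, with replicate 3 nearest to them. The means were 87.4 ± 6.60 and 167 ± 53.3 FPKM (SD, n = 3 each), and the log2 fold change was 0.88 (standard error 0.250, limma adjusted p = 0.0972). It was 0.17 after rescaling (adjusted p = 0.676), and 1.11 without noggin replicate 3, where it passed (adjusted p = 0.0469). The 100 bases before the start of Nfkbia are shown because it alone among these 8 genes did not overlap between groups (chr12:55492648-55492747, minus strand, RefSeq, GRCm38.p6). The capitals mark the kB match at bases -29 to -20, which reads GGGAATTTCC on the opposite strand, the same letters as in Cxcl1 and Cxcl2.
Nfkbia: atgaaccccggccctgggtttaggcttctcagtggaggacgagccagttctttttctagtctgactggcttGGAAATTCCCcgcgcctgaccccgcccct

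The remaining genes of this group overlapped between groups, and several had their extremes in noggin replicate 3. Tnfaip3, the deubiquitinase A20 that also restrains NF-kB, was at 8.42, 13.7 and 11.4 FPKM in controls against 7.25, 23.5 and 23.3 FPKM in noggin libraries (log2 change 0.51, standard error 0.455, limma adjusted p = 0.495). Nfkbiz, an inducible nuclear IkB protein, was at 33.7, 25.0 and 24.0 FPKM in controls against 15.4, 23.9 and 44.6 FPKM in noggin libraries, on both sides of the controls. The subunits Relb, Nfkb1 and Nfkb2 were at 5.14 to 6.18, 2.41 to 3.11 and 10.1 to 11.7 FPKM in controls. Noggin replicate 3 had the lowest value of each, 0.0442 FPKM for Relb, 0.0677 FPKM for Nfkb1 and 5.47 FPKM for Nfkb2. Relb was at 11.4 FPKM in both other noggin libraries, above all controls. Icam1, an NF-kB target that binds leukocytes, was at 4.01 to 5.84 FPKM in controls against 4.78, 9.93 and 0.794 FPKM in noggin libraries. Tnfaip2, another TNF-induced gene, reached at most 0.0402 FPKM. Log2 fold changes were -0.28 for Relb, -0.44 for Nfkb1, -0.30 for Nfkb2 and -0.34 for Icam1, at limma adjusted p-values of 0.573 to 0.856. Of the 7 tested genes 5 had a negative value, and 6 after rescaling, but 5 were positive with quantile normalization and 5 with the length relation removed.

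**Figure D5:**
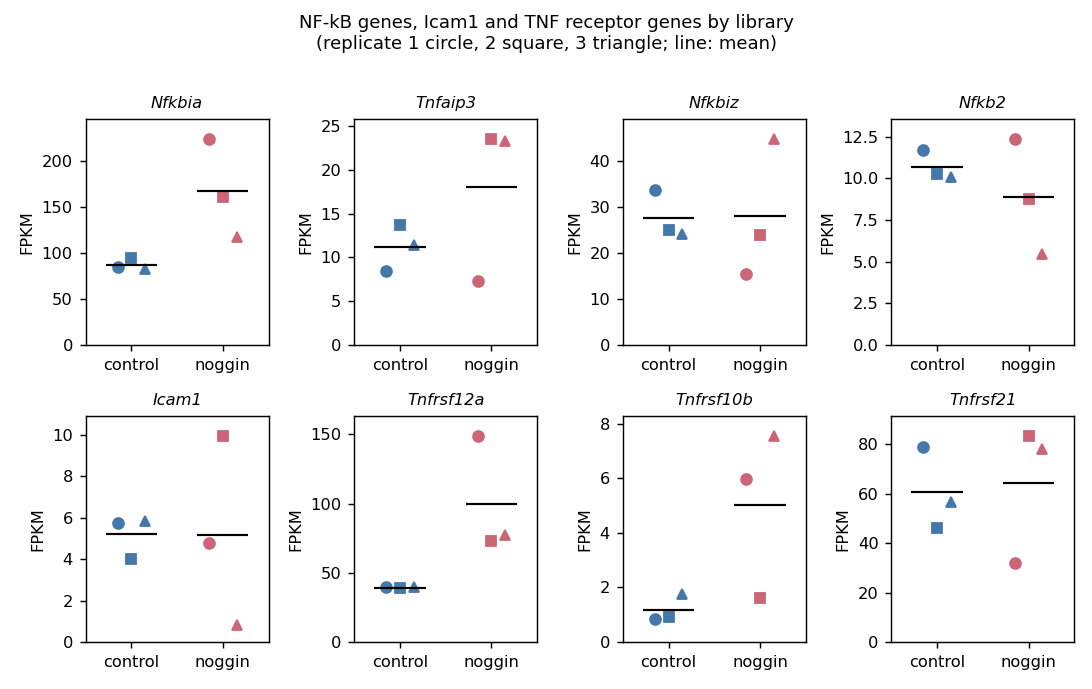
FPKM of 5 NF-kB pathway genes including Icam1 and of 3 TNF receptor genes in each library, with controls on the left and noggin libraries on the right of each panel, a line at the group mean and a linear axis from 0. Nfkbia and Tnfrsf12a have no overlap between groups, at 117 to 223 and 72.9 to 148 FPKM in noggin libraries, and the other 6 genes overlap.

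The signalling machinery behind these receptors was given as a list of 49 genes for kinases, adaptors, Toll-like receptors, Janus kinases, STATs and SOCS proteins. Of these 46 were tested and 0 were called by limma, with 5 higher and 2 lower at an unadjusted p under 0.05, where 15.8% and 10.9% of all tested genes were. The counts of the list are smaller shares of it than these. The median log2 fold change of the list was -0.20, with 18 positive and 28 negative values, beside 5143 and 5501 over all tested genes. Among the genes with the lowest p-values were genes of STAT signalling. Stat2, a factor of type I interferon signalling, was at 3.15, 5.07 and 3.96 FPKM in controls against 11.8, 8.87 and 21.3 FPKM in noggin libraries, without overlap (log2 change 1.5, standard error 0.373, limma adjusted p = 0.0800). Control replicate 2 was the highest control for Stat2, as it was for Il18bp and Cxcl10. Socs1, the feedback inhibitor of interferon receptors, was at 1.43, 1.66 and 1.19 FPKM in controls against 10.5, 4.20 and 7.57 FPKM in noggin libraries (log2 change 1.73, standard error 0.372, limma adjusted p = 0.0617).

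Socs3, the feedback inhibitor of the gp130 receptors, lay the other way, at 103, 67.2 and 83.7 FPKM in controls against 42.9, 55.6 and 32.1 FPKM in noggin libraries. Every noggin library was below every control (log2 change -0.96, standard error 0.260, limma adjusted p = 0.0919). Bcl3, a nuclear IkB protein, was at 14 to 16.1 FPKM in controls against 23.5 to 35.6 FPKM in noggin libraries, and Socs2, an inhibitor of growth hormone signalling, at 95.1 to 129 and 158 to 179 FPKM. Their log2 fold changes were 0.84 (limma adjusted p = 0.0961) and 0.58 (adjusted p = 0.115), the latter turning to -0.14 after rescaling.

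Transcript length moved with the fold changes. Across the 41 tested members, which share the 6 libraries, log2 fold change and transcript length had a Spearman correlation of -0.42, given as a description. The median length was 1114 bases for members with a positive and 2202 bases for those with a negative fold change. With the relation to length removed from each library, Il18bp, Cxcl17 and Il18r1 passed the test as before (log2 fold changes 2.94, 1.73 and 1.85).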

How the data were processed

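The deposited table gives FPKM made by the authors for 23284 genes in 6 libraries. Per the labels' protocols, cDNA came from SMART-Seq Ultra Low Input V3 kits from at least 1 ng of total RNA and read as 50 base single ends. Per the submitters' processing notes, bcl2fastq, FastQC 0.10.0 and mm10 were used. Neither an aligner nor a quantifier is named in the sources used here. Depth is unknown, so 0 means listed at 0. Groups and replicate numbers came from titles.

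The 10644 genes that reached 1 FPKM in 3 or more libraries entered a two-sided limma 3.58.1 test (R 4.3.3) of log2(FPKM + 1), using a mean-variance trend, Benjamini-Hochberg adjustment and a threshold of 0.05. Members and gene lists (signalling machinery and markers of parietal, mucous neck, pit, chief, enteroendocrine, tuft, mast, endothelial and stromal cells and leukocytes) were chosen with earlier results of these data known. Named by rule were called members, a fixed set of cytokine and NF-kB genes, up to 4 members a role by lowest p, untested members whose mean reached 1 FPKM in a group and 6 signalling genes, of which 1 is not reported here. Other members were added after their values were seen, to account for the set. On simulated data for this comparison (10644 genes, 200 changed, 5 runs) the test recovered 45.2% of the changes of size 2 on the log2 scale and 5.6% of those of size 1, and 4.51% of calls were false. The share of false calls in the 6 deposited libraries was not tested. Positions and median transcript lengths are from GENCODE M21 (GRCm38). Current symbols placed 176 members and older symbols 4, and Ccl21c was not placed. Alternatives were other pseudocounts and filters, 2 scalings, no trend, removal of the length trend by lowess, a replicate block and each library left out.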

Additional observations from a re-analysis of the deposited data

How the results depend on the processing

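The number of members called higher (3) was 0 with a pseudocount of 0.1 or 0.01 and without a filter, 1 (Il18r1) without the mean-variance trend, 5 with quantile normalization, and 0 to 8 with 1 library left out. The number called lower (0) was 1 after rescaling and 0 to 2 with 1 library left out. The median of the tested members turned to -0.36 after rescaling, was 0.19 with quantile normalization and 0.40 with the length relation removed, and ran from -0.066 (without noggin replicate 2) to 0.37 with 1 library left out. Over all tested genes, 186 were higher and 74 lower. These counts were 85 and 26 with a pseudocount of 0.1, 72 and 21 with 0.01, 8 and 4 without a filter and 66 and 17 without the trend. Higher genes numbered 128 after rescaling and 243 with quantile normalization. Lower genes numbered 827 after rescaling, 231 with quantile normalization and 32 with the replicate block. With 1 library left out the ranges were 2 to 1144 higher and 0 to 832 lower. Signalling genes called higher (0) were 1 with a filter of 5 FPKM, 2 with quantile normalization, 2 with the length relation removed and 0 to 3 with 1 library left out, and those called lower (0) were 2 after rescaling, 1 with quantile normalization and 0 to 4 with 1 library left out. The cause of these differences was not tested.

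Among genes that did not pass the test, signs turned as follows. Rescaling gave -0.35 for Cx3cl1, -0.54 for Il18, -0.14 for Socs2 and -0.15 for Tnfaip3. Quantile normalization gave 0.28 for Cxcr7, 0.015 for Icam1, -0.082 for Il18, 0.077 for Nfkb1, 0.13 for Relb and 0.19 for Tnfsf9. Removal of the length relation gave -0.078 for Cx3cl1, 0.027 for Cxcr7, 0.14 for Nfkb2, 0.47 for Nfkbiz and 0.0066 for Relb. With 1 library left out the ranges were -1.23 to 0.072 for Ccl28, -0.32 to 0.25 for Cxcr7, -0.93 to 0.37 for Icam1, -0.084 to 0.39 for Il18, -1.01 to 0.25 for Nfkb1, -0.49 to 0.25 for Nfkbiz, -0.88 to 0.90 for Relb and -0.68 to 0.45 for Tnfsf9.

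Deviations from the group means gave no sign that the replicate numbers pair the libraries. They correlated at 0.11, -0.14 and 0.0052 for same-numbered libraries, and not every library correlated best with its own number. With 3 libraries in a group, such a check cannot exclude that same-numbered libraries were handled together. With the replicate block 2 members were called higher, Il18bp and Cxcl17, and 0 lower, and Il18r1 had an adjusted p = 0.112.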
